A study of Mus musculus with 62 samples.

Results

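The genes described here are 10 feedback regulators of MAP kinase signalling, 6 dual-specificity phosphatases (Dusp1, Dusp2, Dusp4, Dusp5, Dusp6 and Dusp8) and 4 members of the Sprouty and Spred families (Spry1, Spry2, Spry4 and Spred1). They were taken by gene name from the deposited gene abundance tables, where all 10 of 10 names matched 1 gene identifier each, out of 53975 identifiers in all. The values come from long-RNA sequencing of 14 HT-22 libraries and 17 mouse hippocampus libraries, 31 of the 62 libraries of the series. The other 31 libraries hold short RNA and were not used here.

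Each mouse library is the hippocampus of 1 mouse, with both hemispheres pooled. The 9 APP libraries come from mice with the App NL-G-F allele, a humanised App gene with familial Alzheimer mutations that was knocked into the mouse locus, at 3, 6 and 12 months of age (3 mice each). The 8 WT libraries come from C57BL/6J mice of the same ages (2, 3 and 3 mice). HT-22 is a single mouse hippocampal cell line, here at passage 4. The cells were kept for 24 h with an LNA, a short antisense oligonucleotide built from locked nucleic acid, which was either anti-Hsf1 at 150 nM or a scramble LNA that the labels put at 50 uM. Whether that unit is right could not be checked, and as labelled the 2 LNAs differ in dose as well as in target, which cannot be told apart. All groups then received 30 uM of peptide in DMSO, either amyloid beta 1-42 (Aβ42) or a reverse 42-1 control. There were 4 libraries for each peptide with the scramble LNA and 3 for each peptide with the anti-Hsf1 LNA, which the design text calls biological replicates.

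Growth factor receptors switch on Ras, which activates the kinases Raf, Mek and Erk in turn. Active Erk induces its own brakes. The dual-specificity phosphatases remove phosphates from both the threonine and the tyrosine of the MAP kinase activation loop, and Sprouty and Spred proteins act upstream, at the level of the receptor adaptors, Ras and Raf. In the hippocampus several of these genes are induced along with immediate-early genes when neurons are active.

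Levels are TPM, a measure per transcript length that can be compared between genes, divided by a scaling factor for each library from the median of ratios across genes. They are called scaled TPM below. Changes are differences of log2(scaled TPM + 1) and understate the change of low genes. Tests used limma with Benjamini-Hochberg adjustment over all genes of a system with a mean scaled TPM of at least 1, and a change was called at an adjusted p below 0.05.

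Start sites of 8 of the 10 genes were taken from the RefSeq promoter table (GRCm38.p6). Motifs were searched on both strands from 250 bases before the start to 50 bases after it. Dusp4 and Spry4 were not searched. The cAMP response element TGACGTCA, bound by Creb family factors, was found in 2 genes. Dusp1 has a match from base -143 to -136 relative to its start, and Dusp8 has matches from -107 to -100 and from -63 to -56. This element occurs in 1.79% of the 32851 promoter windows of the table. The CArG box, the site of serum response factor, was found in Dusp5 alone of the 8, in 2 adjoining copies from -82 to -73 and from -72 to -63, and occurs in 1.63% of all windows. The AP-1 site (TGACTCA or TGAGTCA, in 5.2% of windows), the ETS site CCGGAAG (8.86%) and the heat shock element (3 alternately inverted NGAAN units, 0.603%) had no match in any of the 8. None of the motifs overlapped another. A match is a string of letters and not a measured binding site. The stretches from -250 to -51 are shown for 3 genes with large differences between HT-22 libraries (Dusp5, Dusp6 and Spry2; Dusp4 and Spry4 are not among the 8) and for Dusp1, the gene with a called change with age. Capitals mark the matches.
Dusp5: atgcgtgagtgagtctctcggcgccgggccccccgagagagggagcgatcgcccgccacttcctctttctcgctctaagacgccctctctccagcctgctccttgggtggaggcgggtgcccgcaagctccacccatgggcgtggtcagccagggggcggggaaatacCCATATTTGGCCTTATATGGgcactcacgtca
Dusp6: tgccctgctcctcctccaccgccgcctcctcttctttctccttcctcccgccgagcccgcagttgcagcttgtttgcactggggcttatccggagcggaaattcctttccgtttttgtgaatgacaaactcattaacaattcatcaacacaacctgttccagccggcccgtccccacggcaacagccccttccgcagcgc
Spry2: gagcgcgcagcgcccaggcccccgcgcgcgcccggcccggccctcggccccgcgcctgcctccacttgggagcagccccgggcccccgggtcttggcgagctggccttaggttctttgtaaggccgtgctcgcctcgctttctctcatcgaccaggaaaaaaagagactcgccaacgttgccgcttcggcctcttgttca
Dusp1: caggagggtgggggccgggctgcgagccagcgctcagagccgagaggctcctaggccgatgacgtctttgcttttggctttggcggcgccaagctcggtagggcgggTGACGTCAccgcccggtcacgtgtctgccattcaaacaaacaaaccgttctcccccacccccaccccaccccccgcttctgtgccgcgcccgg
The stretch of Dusp5 lies at chr19:53528895-53529094 on the plus strand, that of Dusp6 at chr10:99262981-99263180 on the plus strand, that of Spry2 at chr14:105896870-105897069 on the minus strand and that of Dusp1 at chr17:26508523-26508722 on the minus strand. All 4 lie upstream of the gene as the deposited tables place it, and all 10 genes are protein-coding in the annotation.

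Before the results, several libraries need naming. In HT-22 cells, replicates 3 and 4 of Aβ42 with scramble LNA and replicate 4 of the reverse peptide with scramble LNA stood apart from the other 11, across both peptides. Their relative depth, the deposited coverage per FPKM, was 1.64, 1.20 and 2.60, against 0.724 to 1.21 in the others, and protein-coding genes held 59.4%, 55.5% and 52.8% of their TPM, against 27.7% to 50.1%. The 6 mesenchymal marker genes summed to 5172, 5065 and 4740 scaled TPM in them and to 2818 to 3409 in the others. Neuronal markers were low in all 14 HT-22 libraries: the 8 summed to between 5.16 and 8.81, with 4 or 5 of the 8 at 0 throughout each group, against 1707 to 2862 in hippocampus. Syn1, 1 of the 8, was detected, at 4.44 or more in the 3 scramble libraries named above and at most 8.38 in the other HT-22 libraries. Replicate 1 of the 3-month APP mice had the lowest neuronal sum in hippocampus (1707, against 2729 and 2719 in its group) and the highest sums for choroid plexus (2400, against 616.6 and 569.8) and striatum (150.0, against 61.4 and 42.0).

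Hsf1, the target of the LNA, was checked as the label of those groups. Hsf1 was 52.4, 42.9 and 48.7 scaled TPM in the libraries labelled anti-Hsf1 with the reverse peptide, overlapping the range of 42.9 to 61.6 of the 4 scramble libraries. With Aβ42 it was 43.1, 51.2 and 46.5 against 48.7 to 70.9. The difference was -0.15 ± 0.14 (SE; adjusted p = 0.959) with the reverse peptide and -0.37 ± 0.14 (adjusted p = 0.520) with Aβ42, and neither passed the test.

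In HT-22 cells several feedback genes differed widely between libraries of the same group. In 3 scramble libraries, Dusp5, Dusp6, Dusp4 and Spry2 reached levels several times those of any other library, whereas Dusp8, Spred1, Spry1 and Dusp1 were higher in the same 3 libraries by small margins. All 8 of the 8 tested genes had their 3 highest values in these 3 libraries, as did 15.5% of the 17207 genes tested. The libraries were recognised from the data, so these values are a description.

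**Figure D1:**
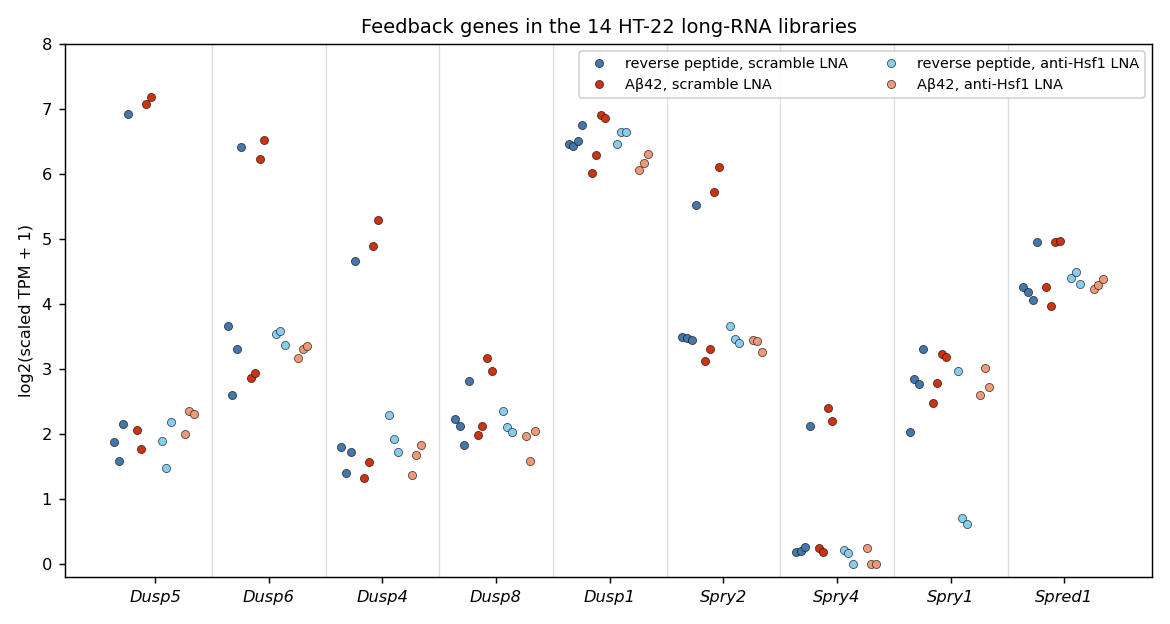
Level of 9 feedback genes in each of the 14 HT-22 libraries (vertical axis, log2(scaled TPM + 1); colours, peptide and LNA; 1 point per library). The 3 scramble libraries named above, 1 with the reverse peptide and 2 with Aβ42, form the upper cluster for Dusp5, Dusp6, Dusp4, Spry2 and Spry4.

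Dusp5 encodes a nuclear phosphatase that is induced by Erk and is selective for Erk. It was 3.15, 2.42, 135 and 144 scaled TPM in replicates 1 to 4 of Aβ42 with scramble LNA, and 2.68, 1.99, 3.45 and 120.2 in those of the reverse peptide. In the libraries labelled anti-Hsf1 it was 2.99, 4.09 and 3.95 with Aβ42 and 2.71, 1.79 and 3.54 with the reverse peptide. The lowest of the 3 high libraries was thus 29.4 times the highest of the other 11, the fourth largest such gap among 17206 genes. The deposited coverage of Dusp5, its mean read depth, ran from 0.980 to 163 over the 14 libraries.

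Dusp6, the cytoplasmic Erk phosphatase, followed the same libraries from a higher base. With scramble LNA it was 6.23, 6.65, 74.1 and 90.6 scaled TPM after Aβ42 and 11.6, 5.03, 8.94 and 84.2 after the reverse peptide. The libraries labelled anti-Hsf1 held 7.98, 8.91 and 9.24 with Aβ42 and 10.6, 11.02 and 9.35 with the reverse peptide. The lowest of the 3 high values was 6.38 times the highest of the remaining 11, which spanned 5.03 to 11.6.

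Dusp4, a nuclear phosphatase of Erk and Jnk, was 1.49, 1.95, 28.5 and 38 scaled TPM after Aβ42 and 2.48, 1.63, 2.31 and 24.4 after the reverse peptide with scramble LNA. With the anti-Hsf1 label it was 1.59, 2.19 and 2.56 after Aβ42 and 3.88, 2.80 and 2.30 after the reverse peptide. The gap between the 3 high libraries and the next was 6.28 times. Dusp8, which acts mainly on Jnk and p38, varied less between libraries. It was 2.94, 3.35, 7.99 and 6.81 after Aβ42 and 3.70, 3.37, 2.57 and 6.04 after the reverse peptide with scramble LNA, and 2.00 to 4.11 in the 6 libraries labelled anti-Hsf1.

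Dusp1, the broadly acting nuclear phosphatase and an immediate-early gene itself, was the most abundant of the 10 in HT-22 cells, with a median of 87.0 scaled TPM. It was 63.9, 77.4, 119 and 115 after Aβ42 and 87.0, 85.2, 90.1 and 107 after the reverse peptide with scramble LNA. With the anti-Hsf1 label it was 65.7, 70.7 and 78.0 after Aβ42 and 87.0, 99.0 and 99.5 after the reverse peptide. The same 3 libraries were the highest, but only by 1.07 times over the next. Dusp2, a nuclear phosphatase best known from activated lymphocytes, was listed at 0 in all 14 HT-22 libraries.

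Among the Sprouty genes, Spry2 had the widest range in absolute level. It was 7.68, 8.91, 51.6 and 67.9 scaled TPM after Aβ42 and 10.2, 10.2, 9.92 and 44.8 after the reverse peptide with scramble LNA, and 8.62 to 11.7 in the libraries labelled anti-Hsf1. Spry4 was near 0 except in the same 3 libraries, with 0.185, 0.132, 4.28 and 3.58 after Aβ42 and 0.132, 0.151, 0.200 and 3.34 after the reverse peptide. In the libraries labelled anti-Hsf1 Spry4 was listed at 0 in 3 and was 0.119 to 0.185 in the others. Its mean of 0.890 missed the filter, so Spry4 and Dusp2 were not tested in HT-22 cells.

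Spry1 showed another pattern than Spry2 and Spry4. It was 4.55, 5.92, 8.36 and 8.06 scaled TPM after Aβ42 and 3.08, 6.15, 5.79 and 8.94 after the reverse peptide with scramble LNA, a gap of only 1.14 times. In the libraries labelled anti-Hsf1 it was 5.04, 7.07 and 5.60 with Aβ42, and 6.85, 0.631 and 0.538 with the reverse peptide. Replicates 2 and 3 of the reverse peptide thus held the lowest Spry1 values of all 14 libraries, on a coverage of 0.320 and 0.290. Spred1, which recruits neurofibromin to Ras, was 18.1, 14.6, 29.9 and 30.3 after Aβ42 and 18.1, 17.3, 15.7 and 30.1 after the reverse peptide with scramble LNA. It was 17.7 to 21.6 with the anti-Hsf1 label, so that its high values lay 1.39 times above the next.

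Other genes of the pathway had the same 3 libraries on top unevenly. All 11 of the 11 tested immediate-early genes and 11 of 13 other Erk output genes had their 3 highest values there. So did 5 of 6 growth factor ligands, and 15.5% of all 17207 genes tested. In contrast, 0 of 13 genes for Ras, Raf, Mek and Erk did, 0 of 10 adaptors and Ras regulators, 3 of 8 receptors, 2 of 12 Jnk and p38 kinases, 3 of 6 other dual-specificity phosphatases and 1 of 2 other Sprouty and Spred genes (Spred2). The libraries were recognised from the data, so these counts are a description. Some genes also passed the filter only through the 3 libraries, which fixed their order in advance. Examples are Npas4 (at most 0.264 scaled TPM elsewhere) and Etv5 (at most 0.890). Hbegf, an Egf receptor ligand, was 57.3, 70.3 and 66.3 scaled TPM in the 3 libraries and at most 2.74 elsewhere. Fosl1, an AP-1 subunit gene responsive to Erk, was at least 93.6 in the 3 and at most 6.94 elsewhere, and Egr1 at least 216 against at most 41.7. These 3 genes were named after their values were seen.

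**Figure D2:**
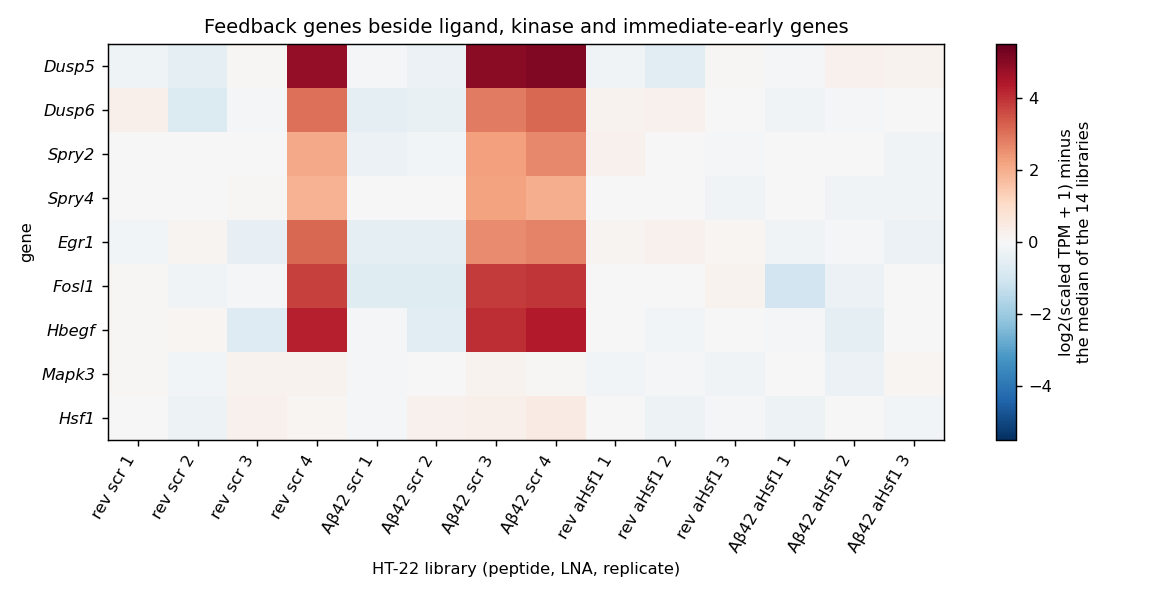
Level of 4 feedback genes, the ligand gene Hbegf, immediate-early and Erk output genes, the Erk gene Mapk3, and Hsf1 in each HT-22 library (columns), as log2(scaled TPM + 1) minus the gene's median over the 14 libraries (colour). Replicate 4 of the reverse peptide and replicates 3 and 4 of Aβ42, all with scramble LNA (scr), are dark for the feedback, ligand and immediate-early genes and pale for Mapk3 and Hsf1.

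The comparisons asked whether Aβ42 changed these genes and whether the anti-Hsf1 LNA altered that. None of the 8 tested genes was called for Aβ42 against the reverse peptide with scramble LNA, in which 0% of the 17207 genes were called and 5.03% had an unadjusted p below 0.05, none of them feedback genes. The differences were 1.39 ± 1.33 for Dusp5, 0.87 ± 0.89 for Dusp4, 0.64 ± 0.89 for Dusp6 and 0.58 ± 0.64 for Spry2 (log2 ± SE). For Dusp8 the difference was 0.30 ± 0.29, for Spry1 0.18 ± 0.45, for Spred1 0.17 ± 0.23 and for Dusp1 -0.02 ± 0.17. The 8 adjusted p-values lay between 0.953 and 0.997. Each SE is about as large as its difference or larger, and the scramble groups hold 2 and 1 of the high libraries.

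Without the 3 libraries, the same comparison left none of the 8 genes called (0.00579% of genes were) and turned the sign for 5 of them. The difference became 0.04 ± 0.27 for Dusp5, -0.20 ± 0.25 for Dusp4, -0.29 ± 0.26 for Dusp6 and -0.26 ± 0.14 for Spry2. It became -0.02 ± 0.22 for Dusp8, -0.06 ± 0.12 for Spred1, 0.09 ± 0.60 for Spry1 and -0.31 ± 0.11 for Dusp1, whose unadjusted p of 0.0171 gave an adjusted p of 0.592 in limma. This fit was chosen after the libraries had been seen and leaves 2 Aβ42 and 3 reverse peptide libraries with scramble LNA.

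With Aβ42, the libraries labelled anti-Hsf1 were compared with the scramble ones. Protein-coding genes held 27.7% to 36.8% and 47.8% to 59.4% of their TPM, and the part of library make-up in the differences was not tested. No feedback gene was called, as against 0.0232% of genes, and 1 of 8, Dusp8, had an unadjusted p below 0.05 (9.03% of genes). All 8 differences were below 0, with -2.31 ± 1.44 for Dusp5, -1.64 ± 0.96 for Dusp4, -1.36 ± 0.96 for Dusp6 and -1.18 ± 0.69 for Spry2. Those of Dusp8 (-0.70 ± 0.31), Dusp1 (-0.34 ± 0.19), Spred1 (-0.24 ± 0.25) and Spry1 (-0.14 ± 0.48) were smaller. Without the 3 libraries, 7 of the 8 signs turned and none was called (0.0231% of genes were). Dusp5 was then at 0.30 ± 0.27, Dusp4 at 0.19 ± 0.25, Dusp6 at 0.38 ± 0.26, Spry2 at 0.17 ± 0.14 and Dusp8, the exception, at -0.19 ± 0.22. With array weights, which give libraries unequal weight in the fit, 6 of the 8 (Dusp1, Dusp4, Dusp5, Dusp6, Dusp8 and Spry2) were called lower, with Dusp5 at -3.81 (adjusted p = 0.0346), among 1847 of 17207 genes called in either direction.

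**Figure D3:**
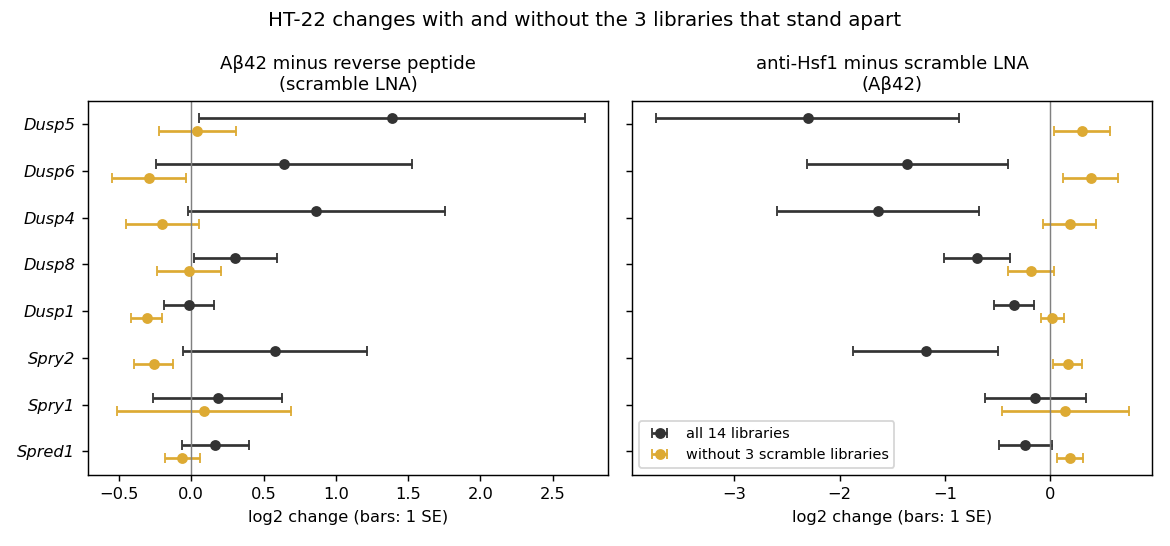
Log2 change of the 8 tested feedback genes (horizontal axis; points, limma estimate; bars, 1 SE) for Aβ42 against the reverse peptide with scramble LNA and for anti-Hsf1 against scramble LNA with Aβ42. Estimates over all 14 libraries (black) lie away from 0 with wide bars for Dusp5, Dusp6, Dusp4 and Spry2. Estimates without the 3 scramble libraries (yellow) lie between -0.31 and 0.38. For Aβ42 against the reverse peptide, Dusp1 moves away from 0, from -0.02 to -0.31.

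The 2 remaining HT-22 contrasts and the interaction called none of the 8 genes either, and 0% of all genes. For Aβ42 against the reverse peptide under the anti-Hsf1 label, which holds none of the 3 libraries, Dusp1 was lower in all 3 Aβ42 libraries than in any reverse peptide library (-0.41 ± 0.20, adjusted p = 1). Dusp6 was lower without overlap as well (-0.22 ± 1.02, adjusted p = 1), and 18.4% of all genes did not overlap in this contrast. Spry1 had an unadjusted p of 0.0214 there (difference 1.34 ± 0.52), and of 0.0178 for anti-Hsf1 against scramble with the reverse peptide (-1.30 ± 0.48, adjusted p = 0.959), with overlapping ranges. These rest on the same pair of low Spry1 libraries. An unadjusted p below 0.05 was found for 4.58% and 3.6% of genes in these contrasts and for 5.18% in the interaction, in which no feedback gene had one. On simulated data, changes were added to more abundant genes only, each with a spread estimated from these libraries. The fit of anti-Hsf1 against scramble with the reverse peptide recovered 62% of genes changed by 1 and 95% of those changed by 2 on the log2 scale, so smaller changes can go uncalled. In the real contrast the SE was 1.44 for Dusp5 and 0.96 for Dusp4 and for Dusp6. The rates do not carry over to these 3 genes, for which larger changes can go uncalled too. Under the anti-Hsf1 label, protein-coding genes held 27.7% to 36.8% of TPM after Aβ42 and 42.3% to 46.9% after the reverse peptide. The part of library make-up in the differences between these groups, and in the interaction, was not tested.

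In hippocampus the order of levels was another one. Spred1 was the most abundant (median 47.4 scaled TPM, range 39.3 to 65.9), followed by Dusp8 (31.4, 26.5 to 36.6), Spry2 (22.5, 17.9 to 32.7) and Dusp6 (19.98, 14.5 to 39.8). Below them came Dusp1 (9.24, 7.17 to 19.0), Dusp4 (8.35, 5.00 to 11.7), Dusp5 (6.82, 4.52 to 12.7), Spry4 (3.99, 2.70 to 6.51) and Spry1 (3.44, 2.77 to 5.37). Neighbours in this order overlapped throughout, apart from Spred1, whose lowest library was above the highest of Dusp8. Dusp2 was at most 0.570 and at 0 in 4 of 17 libraries, so 9 of the 10 genes passed the filter and were tested among 17737 genes. By medians, Dusp8 was the second of the 10 in hippocampus and the sixth in HT-22 cells (3.33), and Dusp1 was the first in HT-22 cells and the fifth in hippocampus. The 2 systems were scaled separately, so only the order is set side by side.

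**Figure D4:**
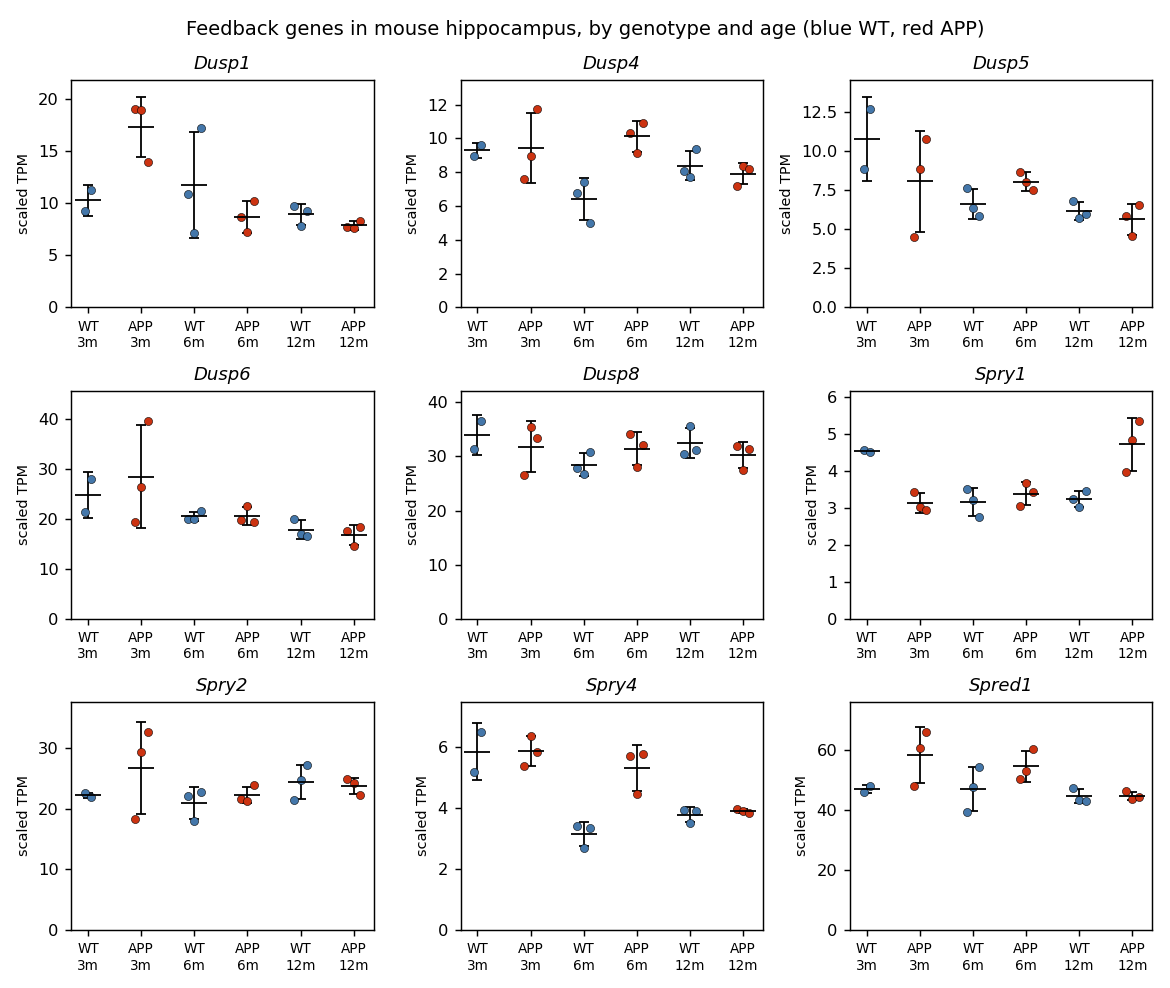
Scaled TPM of 9 feedback genes in each mouse (points; blue WT, red APP) by age in months, with the mean and SD of each group (bars; 2 mice for WT at 3 months, 3 for the others). Dusp1 is highest in the 3-month APP mice, Spry4 is lowest in the 6-month WT mice, and the 3-month APP mice spread most for Dusp5, Dusp6 and Spry2.

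Several other features move with the mouse groups. All APP libraries and the 3-month WT libraries expressed Xist, whereas the 6- and 12-month WT libraries expressed the Y-linked genes Ddx3y, Uty, Kdm5d and Eif2s3y: Xist was higher in APP by 6.52 ± 0.10 at 6 months and by 6.39 ± 0.10 at 12 months on the log2 scale. At 6 and 12 months, genotype and sex therefore cannot be told apart, nor can age and sex between WT mice of 3 and 12 months. In whole hippocampus, a change in the number of cells of a type and a change in RNA per cell cannot be told apart either.

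Spry4 at 6 months, higher in APP mice, was the only feedback gene called between APP and WT mice at any of the 3 ages. Dusp4 at 6 months, Dusp1, Spry1 and Spred1 at 3 months and Spry1 at 12 months had ranges that did not overlap but missed the adjusted test.

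Spry4, a Sprouty gene that Fgf signalling induces, was 5.72, 4.46 and 5.78 scaled TPM in the 6-month APP mice and 3.40, 2.70 and 3.35 in the WT mice. The groups did not overlap, and the difference of 0.60 ± 0.13 was called (adjusted p = 0.0341). It was the only one of the 9 tested genes called at this age, at which 1.73% of all genes were called. Spry4 was not called without APP replicate 1 (adjusted p = 0.0817) or 3 (0.119), or without WT replicate 1 (0.0802), 2 (0.103) or 3 (0.05001), where the differences stayed between 0.52 and 0.65, and it was called without APP replicate 2 (0.0427). It also was not called with no filter on low values (0.0625) or when only the 2 groups entered the fit (0.177). Dusp4 was 10.3, 9.12 and 10.9 in APP and 6.79, 7.41 and 5.00 in WT mice, also without overlap, with a difference of 0.60 ± 0.15 and an adjusted p of 0.0627. Dusp4 did pass when libraries were scaled to protein-coding genes (adjusted p = 0.0487) or only genes with a mean of at least 5 were tested (0.0448). Spry4 and Dusp4 were the 2 of the 9 genes with an unadjusted p below 0.05 (17% of all genes) and with ranges that did not overlap (21.3% of all genes). The 5 choroid plexus markers summed to 38.5 to 899.6 in these APP mice and to 1129 to 1345 in the WT mice. The 5 erythroid markers summed to 90.2 to 136.6 and 174.2 to 225.5, with 1 erythroid marker called lower. Protein-coding genes held 31.5% to 43.2% of TPM in these APP mice and 21.1% to 24.3% in the WT mice. The scaling factors were 1.125 to 1.468 and 0.693 to 0.841. The part of these markers and of library make-up in the difference of Spry4 was not tested.

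At 3 months, none of the 9 genes was called (0.304% of all genes were). Dusp1 was 19.0, 18.9 and 13.98 scaled TPM in APP mice and 9.24 and 11.3 in WT mice, a difference of 0.69 ± 0.25 with an unadjusted p of 0.0141 and an adjusted p of 0.232 in limma. Spry1 was 3.44, 3.02 and 2.95 in APP and 4.57 and 4.51 in WT mice, a difference of -0.42 ± 0.15 (adjusted p = 0.217). Spred1 was 47.8, 60.7 and 65.9 against 45.9 and 47.8 (0.29 ± 0.14, adjusted p = 0.395), nearly touching at 47.8. Dusp1 and Spry1 were the 2 genes with an unadjusted p below 0.05, which 13.4% of all genes had, and 3 of the 9 ranges did not overlap, as for 27.1% of all genes. The 6 oligodendrocyte markers summed to 1478 to 2432 in these APP mice and to 1323 and 1422 in the WT mice, and the striatal sums were 42.0 to 150.0 against 37.3 and 40.1. The erythroid sums were 147.9 to 223.8 against 73.3 and 87.6, and the endothelial sums 20.2 to 24.6 against 15.7 and 17.6. Astrocyte sums were lower in APP mice, 746.6 to 929.0 against 987.8 and 1010. The part of these markers in these values was not tested.

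At 12 months none of the 9 genes was called (0.434% of all genes were). Spry1 was 3.97, 4.84 and 5.37 scaled TPM in APP mice and 3.24, 3.03 and 3.46 in WT mice, without overlap. The difference of 0.43 ± 0.13 had an unadjusted p of 0.00562 and an adjusted p of 0.327 in limma. Spry1 was the only one of the 9 with an unadjusted p below 0.05 (7.02% of all genes) or without overlap (15.6%). The 6 microglial markers summed to 233.0 to 261.6 in the 12-month APP mice and to 110.6 to 134.7 in the WT mice, the astrocyte markers to 1354 to 1522 and 1010 to 1056, and the choroid plexus markers to 1421 to 1644 and 420.4 to 1295. Whether Spry1 moved with these cells was not tested. On simulated data this contrast recovered 86% of genes changed by 1 and 98% of those changed by 2 on the log2 scale. Changes were added there to more abundant genes only. Spry1, with a mean of 3.65 scaled TPM over all mice, lay below that level, so the rates do not cover it.

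None of the 9 genes passed the test of whether the genotype difference changed with age, in which 0.468% of all genes were called. Spry1 had the lowest adjusted p (F = 9.26, adjusted p = 0.106), followed by Spry4 (F = 6.21, 0.173), Dusp4 (F = 5.62, 0.197) and Dusp1 (F = 5.25, 0.208). These 4 of 9 had an unadjusted p below 0.05, as did 16% of all genes.

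Dusp1 fell with age in APP mice and was the only feedback gene called in any age contrast. Dusp1 was 19.0, 18.9 and 13.98 scaled TPM at 3 months, 8.64, 7.19 and 10.2 at 6 months and 7.69, 7.59 and 8.34 at 12 months in APP mice. The 3-month mice lay above all the others. The change was -0.92 ± 0.22 from 3 to 6 months (adjusted p = 0.0458) and -1.03 ± 0.22 from 3 to 12 months (adjusted p = 0.0223). In these contrasts 2.38% and 3.28% of all genes were called, and Dusp1 was the only one of the 9 in each. The 2 contrasts share the 3-month mice. An unadjusted p below 0.05 was found for 1 and 5 of the 9 genes, against 18.7% and 16.5% of all genes. In WT mice Dusp1 was 9.24 and 11.3 at 3 months, 10.9, 7.17 and 17.2 at 6 months and 9.76, 7.84 and 9.22 at 12 months, with overlapping ranges.

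The call of Dusp1 rested on most of the mice. From 3 to 6 months it was lost without APP 3-month replicate 1 (adjusted p = 0.129) or 2 (0.0839) and without 6-month replicate 1 (0.0737), 2 (0.190) or 3 (0.0856), with changes of -1.03 to -0.80, and it held without 3-month replicate 3 (0.0330). From 3 to 12 months Dusp1 lost its call without 3-month replicate 1 (0.0659) or 2 (0.0665) and without 12-month replicate 1 (0.0786), 2 (0.0763) or 3 (0.0695), and held without 3-month replicate 3 (0.0177). The call was lost in both contrasts with TPM as deposited (0.146 and 0.0671). From 3 to 6 months it was also lost with scaling to protein-coding genes (0.0552), no filter on low values (0.0983), the replicate block (0.0507), array weights (0.0867) and only the 2 groups in the fit (0.158). Oligodendrocyte markers moved alongside: the 6 summed to 1478 to 2432 at 3 months, 818.6 to 1030 at 6 months and 1046 to 1172 at 12 months in APP mice, with 6 of 6 called lower from 3 to 6 months and 5 of 6 from 3 to 12 months. The 5 striatal markers summed to 42.0 to 150.0, 22.6 to 36.9 and 28.7 to 39.3. Astrocyte and microglial sums were higher: the 6 astrocyte markers summed to 746.6 to 929.0, 1091 to 1368 and 1354 to 1522 at the 3 ages (2 of 6 called higher at 6 months and 1 of 6 at 12 months). The 6 microglial markers summed to 100.2 to 114.6, 100.9 to 184.7 and 233.0 to 261.6 (3 of 6 called higher at 12 months). The part of these markers in the fall of Dusp1 was not tested.

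A further 4 genes did not overlap between APP mice of 3 and 12 months. Dusp6 was 19.3, 26.3 and 39.8 scaled TPM at 3 months and 17.7, 14.5 and 18.3 at 12 months (-0.67 ± 0.19, adjusted p = 0.0717). Spry4 was 5.39, 6.37 and 5.86 and then 3.98, 3.92 and 3.85 (-0.48 ± 0.13, adjusted p = 0.0611). The 12-month values of Spry4 hardly varied, and each lay below every 3-month value. Spred1 was 47.8, 60.7 and 65.9 and then 46.0, 43.4 and 44.3 (-0.36 ± 0.13, adjusted p = 0.153). Spry1 went the other way, from 3.44, 3.02 and 2.95 to 3.97, 4.84 and 5.37 (0.46 ± 0.13, adjusted p = 0.0728). With Dusp1, 4 of 9 genes were lower and 1 was higher without overlap, against 10.7% and 11.3% of all genes, and the median change of the 9 was -0.36 against 0.01 over all genes. Without APP 3-month replicate 1, the library with high choroid plexus and striatal sums, Dusp5 (-0.71, adjusted p = 0.0483), Dusp6 (-0.91, 0.0118) and Spred1 (-0.50, 0.0471) were called, among 407 of 17739 genes. Dusp5 was 4.52 in that library and 8.85 and 10.8 in the other 3-month APP mice, and over all mice its change was -0.39 ± 0.23 (adjusted p = 0.436). With array weights, Dusp6, Spry1, Spry4 and Spred1 were called beside Dusp1, among 725 of 17737 genes.

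From 6 to 12 months in APP mice no feedback gene was called (0.541% of all genes were), and 3 of 9 (Spry1, Spry4 and Spred1) had an unadjusted p below 0.05, as did 11.4% of all genes. Spry4 went from 5.72, 4.46 and 5.78 to 3.98, 3.92 and 3.85 scaled TPM (-0.36 ± 0.13, adjusted p = 0.309). Dusp5, at 8.66, 7.999 and 7.48 and then 5.82, 4.59 and 6.55, had a change of -0.45 ± 0.23 (adjusted p = 0.477). Ranges did not overlap for Dusp4, Dusp5, Dusp6, Spry4 and Spred1 (lower) and Spry1 (higher), 6 of 9, whereas 20.1% of all genes did not overlap. Between these ages the choroid plexus sum was 38.5 to 899.6 at 6 months and 1421 to 1644 at 12 months, with 5 of 5 markers higher without overlap and none called. The microglial sum was 100.9 to 184.7 and then 233.0 to 261.6, with 3 of 6 markers called higher, and the erythroid sum 90.2 to 136.6 and then 149.8 to 180.5. Their part in these values was not tested.

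In WT mice no feedback gene was called for 12 against 3 months (0.062% of all genes) or 12 against 6 months (0%). Spry4 was 5.20 and 6.51 scaled TPM at 3 months, 3.40, 2.70 and 3.35 at 6 months and 3.94, 3.50 and 3.90 at 12 months. Its change from 3 to 12 months was -0.52 ± 0.15 (unadjusted p 0.00319, adjusted p = 0.334 in limma), beside -0.48 in APP mice. Dusp5 was 8.86 and 12.7 at 3 months and 6.82, 5.73 and 5.96 at 12 months (-0.70 ± 0.25, adjusted p = 0.474). Spry1 was 4.57 and 4.51 and then 3.24, 3.03 and 3.46 (-0.39 ± 0.15, adjusted p = 0.499), beside 0.46 in APP mice. The interaction of genotype and age over the 3 ages, in which sex cannot be told apart, had an adjusted p of 0.106 for Spry1 in limma. Dusp6 was 21.5 and 28.0 and then 20, 16.9 and 16.5 (-0.45 ± 0.21, adjusted p = 0.604), beside -0.67 in APP mice. These 4 of 9 genes were lower without overlap, against 13.7% of all genes. The oligodendrocyte sum was 1323 and 1422 and then 930.2 to 968.1, and the erythroid sum 73.3 and 87.6 and then 138.0 to 221.6; their part in these values was not tested. Dusp4 was 6.79, 7.41 and 5.00 at 6 months and 8.09, 7.72 and 9.36 at 12 months (0.35 ± 0.15, adjusted p = 0.715). An unadjusted p below 0.05 was found for 3 of 9 genes from 3 to 12 months and 1 of 9 from 6 to 12 months, against 8.29% and 6.85% of all genes. Dusp8 and Spry2 had ranges that overlapped in each of the 8 mouse contrasts, from 26.5 to 36.6 for Dusp8.

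**Figure D5:**
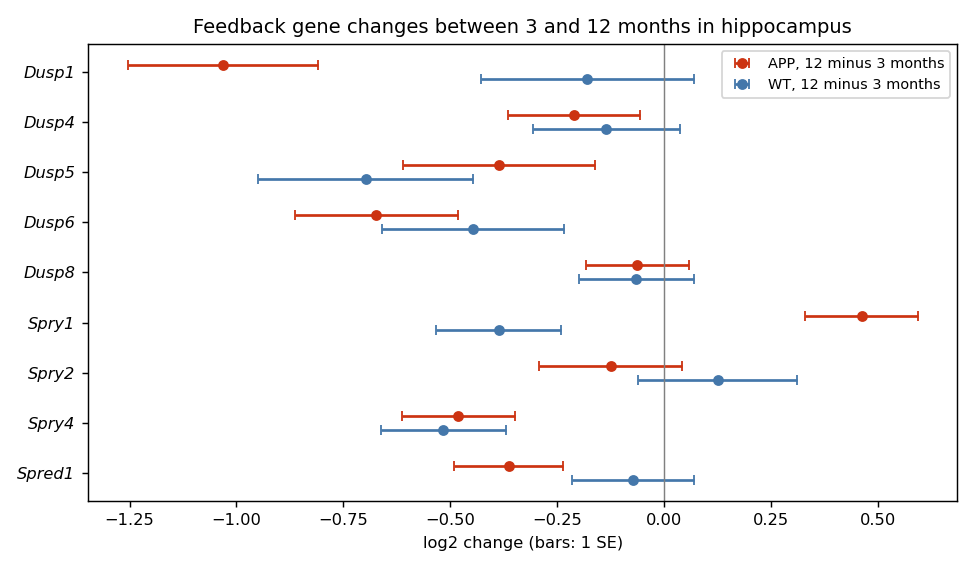
Log2 change between 3 and 12 months of 9 feedback genes (points, limma estimate; bars, 1 SE) in APP (red) and WT mice (blue). Dusp1 is at -1.03 in APP mice, and Spry1 lies above 0 in APP and below 0 in WT mice.

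Of the other genes of the pathway, from 3 to 12 months in APP mice, in which 3.28% of all genes were called, 1 of 9 ligand genes rose (Ntf3, 1.03 ± 0.21, adjusted p = 0.0168) and 1 fell (Hbegf, -0.72 ± 0.17, 0.0384). Among 12 receptor genes Fgfr1 rose (0.78 ± 0.18, 0.0313) and Erbb3, an oligodendrocyte-expressed receptor gene, fell (-0.66 ± 0.13, 0.0168). Of 13 genes for Ras, Raf, Mek and Erk, the scaffold gene Ksr1 rose (0.67 ± 0.16, 0.0328). Of 13 Jnk and p38 kinase genes, Map3k5 fell (-0.60 ± 0.14, 0.0279). None of 12 adaptors and Ras regulators, 10 other Erk output genes, 5 other dual-specificity phosphatases and 2 other Sprouty and Spred genes was called.

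The immediate-early genes, which are induced by the same signals, were mostly lower in that contrast, with 3 of 13 above the median change of all genes. Fos fell by 1.59 and Egr2 by 1.37 (adjusted p = 0.00315 and 0.0302), and Jun rose by 0.65 (0.0209), 3 of 13 genes tested against 3.28% of all genes, with a median of -1.09 against 0.01 over all genes. An unadjusted p below 0.05 was found for 8 of the 13, against 16.5% of all genes. Fos was 15.8, 26.9 and 21.8 scaled TPM in the 3-month APP mice and 6.44, 5.51 and 7.16 at 12 months. Arc, a dendritic immediate-early gene, was 20.4, 138 and 128 in the 3-month APP mice, low in the replicate in which Dusp6 was lowest. From 3 to 6 months the called genes of the pathway lists were Ntf3, Erbb3, Ksr1, Map3k5, Fos, Egr2 and Jun. Between genotypes only Ksr1 at 3 months (lower in APP by 1.07, adjusted p = 0.0300) and the receptor gene Igf1r at 6 months (higher by 0.56, 0.0239) were called, and none at 12 months.

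Some genes followed the feedback genes closely across libraries. Over the 14 HT-22 libraries Pearson's r was 0.998 for Dusp4 with Jun, 0.995 for Dusp5 with the amino acid transporter gene Slc7a5, 0.993 for Dusp6 with Wdr36, 0.995 for Spry2 with the kinase gene Plk2, 0.969 for Dusp8 with H13, 0.950 for Dusp1 with Gm17056, 0.914 for Spry1 with Slc44a2 and 0.984 for Spred1 with the polyamine enzyme gene Odc1. The 3 high libraries set most of the spread in these values. Over the 17 mouse libraries the closest genes were Irs2 for Spry4 (r = 0.945), Atp9a for Dusp8 (0.935), Ephb6 for Spry2 (0.931), Rasgef1b for Dusp1 (0.913), Arc for Dusp6 (0.875), Dnajb5 for Dusp5 (0.870), Zfp384 for Dusp4 (0.850), Fosb for Spred1 (0.848) and Sod3 for Spry1 (0.777). These are the highest values among all genes tested and describe these libraries only.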

How the data were processed

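Long-RNA libraries were prepared after fragmentation and ribosomal RNA depletion, per the labels' protocols. The submitters' processing notes name FastQC, cutadapt 1.18, BWA 0.7.17, HISAT2 2.1.0, bedtools 2.26.0, StringTie 1.3.4d and the mm10 (GRCm38) build, without their roles. Each deposited gene table gives TPM, FPKM and coverage (mean read depth), per the file headers, for 1 library. FPKM served for relative depth only, and coverage for relative depth and to describe the read depth of single genes. Reads per gene cannot be recovered, so no count model was run.

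TPM was summed per gene identifier, scaled by the median of ratios within HT-22 and within mouse, and tested as log2(scaled TPM + 1) with limma 3.58.1 (R 4.3.3; trend, robust), in 1 fit per system with group means. Genes below a mean of 1 were left out. The fits were tested on simulated data. All 10 genes were described. From each pathway list, called genes with the largest change were named, at most 4 per contrast, and of the 3 closest genes by Pearson's r the closest was named for each tested gene. The genes, lists and tests were chosen with earlier results of these data known.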

Additional observations from a re-analysis of the deposited data

Results flagged for a closer look

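In the HT-22 group with reverse peptide and scramble LNA, replicate 4 lay far above the other 3 libraries, by Dixon's ratio, for 6 of the 9 genes detected there. Its scaled TPM was 120.2 for Dusp5 (next library 3.45), 84.2 for Dusp6 (11.6), 24.4 for Dusp4 (2.48), 44.8 for Spry2 (10.2), 3.34 for Spry4 (0.200) and 30.1 for Spred1 (18.1). Dixon's ratio was computed for 18 combinations of gene and group and flags about 1 in 20 groups by chance. The 6 genes share 1 library, so the 6 flags are not independent. Aβ42 replicates 3 and 4 with scramble LNA were equally high but came as a pair within their group of 4, which this ratio does not flag.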

How the results depend on the processing

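Under TPM as deposited, 1 feedback gene was called for Aβ42 against reverse peptide with anti-Hsf1, among 4197 of 17291 genes. For anti-Hsf1 against scramble with Aβ42 it was 4, among 8766 genes, and in the HT-22 interaction 1, among 4379. For APP against WT at 6 months 8 were called, among 10339 of 17840 genes, and in the mouse interaction 6, among 5910. For APP 6 and 12 against 3 months 0 were called, among 1270 and 286 genes. That scaling shifts the median of all genes by -0.52, -0.62, -0.68 and, at 6 months, 0.60 on the log2 scale, and at 6 months turned 76 higher and 231 lower calls into 10267 and 72. Without the 3 scramble libraries it gave 6, 3 and 2 in the 3 HT-22 results, among 7270, 8892 and 5049 of 17295 genes. Array weights gave 6 for anti-Hsf1 against scramble with Aβ42 (Dusp1, Dusp4, Dusp5, Dusp6, Dusp8 and Spry2, Dusp5 at -3.81; 1847 of 17207 genes), 0 for APP 6 against 3 months and 5 for 12 against 3 months (725 of 17737 genes). At 6 months against WT, protein-coding scaling gave 2 (among 325 of 17867 genes), no filter 0 and the 2 groups alone 0. For APP 6 against 3 months, protein-coding scaling, no filter, the 2 groups alone and the replicate block each gave 0. Leaving out 1 library gave 0 to 1 member at 6 months, 0 to 1 for APP 6 against 3 months and 0 to 3 for 12 against 3 months, and 0 in every other contrast. In those 3 contrasts 68 to 286, 40 to 583 and 160 to 751 of all genes were called. The cause of these differences was not tested.

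For Aβ42 against reverse peptide with scramble LNA, Dusp1 turned to 0.15 with TPM as deposited and 0.24 with array weights, and leaving out 1 library gave -0.15 to 0.15 for Dusp1 and -0.0540 to 0.37 for Spry1. The signs that turned without the 3 scramble libraries were -0.20 for Dusp4, -0.29 for Dusp6, -0.0168 for Dusp8, -0.26 for Spry2 and -0.0626 for Spred1, and with TPM as deposited -0.0905 for Dusp4, -0.14 for Dusp6 and -0.10 for Spry2. For anti-Hsf1 against scramble with Aβ42 they were 0.0195 for Dusp1, 0.19 for Dusp4, 0.30 for Dusp5, 0.38 for Dusp6, 0.14 for Spry1, 0.17 for Spry2 and 0.19 for Spred1. The 3 called changes (Spry4 at 6 months and Dusp1 in both age contrasts) kept their sign in every setting run.

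Samples with the same replicate number did not deviate together (r of -0.22 to 0.58 over 19 HT-22 pairs and -0.15 to 0.23 over 40 mouse pairs, 3 above 0.1 in each), so numbers were not treated as pairs. The replicate block removed the call of Dusp1 from 3 to 6 months (-0.92, adjusted p = 0.0507) and changed no other call of a feedback gene. Low coverage limits Dusp2, Spry4 and the low Spry1 libraries in HT-22 cells. Median coverage over the 14 HT-22 libraries was also low for Dusp4 (1.28), Dusp5 (1.68) and Dusp8 (1.72). The lower side of the gaps given for these genes rests on such libraries.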
